A study of Mus musculus with 4 samples.

Results

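Endothelial cells line blood vessels, and the 10 genes described here mark these cells or act on them. They were chosen by name from a count table of mouse tibialis anterior (TA) muscle, and all 10 of the 10 names were found among the 13825 genes of the table. 8 are expressed mainly by endothelial cells: Pecam1, Cdh5, Kdr, Flt1, Tek, Tie1, Vwf and Emcn. The other 2, Vegfa and Vegfb, encode ligands of the vascular endothelial growth factor (VEGF) family.

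The series asked how loss of the growth factor FGF21 alters denervation-induced muscle atrophy. Adult male wild-type (WT) mice and mice lacking Fgf21 in the whole body (Fgf21KO) were used, and TA muscles were taken on day 14. By the sample labels, a piece of 2 mm was cut out of the left sciatic nerve and the innervated right leg served as control, whereas the methods of the study describe an operated contralateral limb with the nerve left intact and another segment length. WT muscle from the sham and the denervated leg gave the groups WS and WD, Fgf21KO muscle gave KS and KD in the same way, and each was sequenced as 1 library of mRNA pooled from 4 muscles. With 1 library per group, no difference between 2 libraries had a replicate check and none was given a p-value. Fgf21, the gene removed, was not among the 13825 genes of the count table, so the genotypes are taken here from the labels alone. The paper reports that Fgf21 expression was lost in Fgf21KO mice, with and without denervation. The genes analysed held a total of 25249879 counts in WS against 29150147 in WD, and 34141303 in KS against 27740920 in KD.

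As background, VEGF-A binds the receptors VEGFR1 (Flt1) and VEGFR2 (Kdr) on endothelial cells, and signalling through Kdr drives survival, migration and sprouting. Angiopoietins act through Tie2 (Tek), with Tie1 as a partner receptor, and set how stable a vessel is. In skeletal muscle, myofibres are a main source of VEGF-A, and the capillary bed varies with the oxidative demand of the fibres.

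All 10 genes were lower after denervation in both genotypes, except that Emcn was not lower in WD when libraries were scaled by total counts alone. Levels are given in CPM, a gene's counts relative to the library's total after scaling by TMM factors, and differences as log2 ratios, so that a ratio of −1 is a 2-fold lower level. WD was at least 2-fold below WS for 6 of 10 genes, against 7.61% of the 13084 genes tested, and KD was at least 2-fold below KS for 2 of 10, against 6.1%. None of the 10 was 2-fold higher, whereas 7.18% of all genes tested were higher in WD and 7.51% in KD. For 10 of 10 genes both sham libraries stood above both denervated ones (Emcn again excepted with total counts alone), as they did for 36.7% of all genes tested. The median log2 ratio of the 8 endothelial genes was −1.19 for WD vs WS and −0.89 for KD vs KS, beside 0.0076 and 0.0098 over all genes tested. In these bulk samples, fewer endothelial cells and less RNA per cell cannot be told apart.

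With additive terms for denervation and genotype, fitted on all 4 libraries at once, edgeR's quasi-likelihood test gave an adjusted p below 0.05 (Benjamini-Hochberg over all genes tested) with lower expression for 10 of 10 genes, against 27% of all genes tested. With a fold change of at least 2 as a further condition, 6 of 10 passed (Cdh5, Kdr, Flt1, Tie1, Vwf and Vegfa), against 6.24% of all genes lower and 6.84% higher. The test rests on 1 residual degree of freedom, in which the 2 pools of each surgery stand as replicates. Its p-values therefore do not measure the spread between mice. The scale mattered for the fold condition. The share of counts on the 13 mitochondrial protein genes was 27% in WS against 19.4% in WD, and 30.4% in KS against 20.6% in KD. When libraries were scaled by total counts alone, the all-gene median log2 ratio rose to 0.29 (WD vs WS) and 0.36 (KD vs KS). On that scale 9 of 10 genes were still lower at an adjusted p below 0.05 but 0 of 10 passed the fold condition, and the split of all passing genes changed from 816 lower and 895 higher to 324 lower and 1704 higher. The log2 fold changes of all genes moved up on that scale, by a median of 0.32, and the medians of the lists with them. Of the 34 genes named from the 10 and the lists that fell with the fold condition, 10 still passed there. Without the 13 mitochondrial genes, and again with TMM factors, 6 of 10 passed, with all-gene medians of 0.0065 and 0.0089. How much of the shift on total counts came from the mitochondrial share was not tested.

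**Figure D1:**
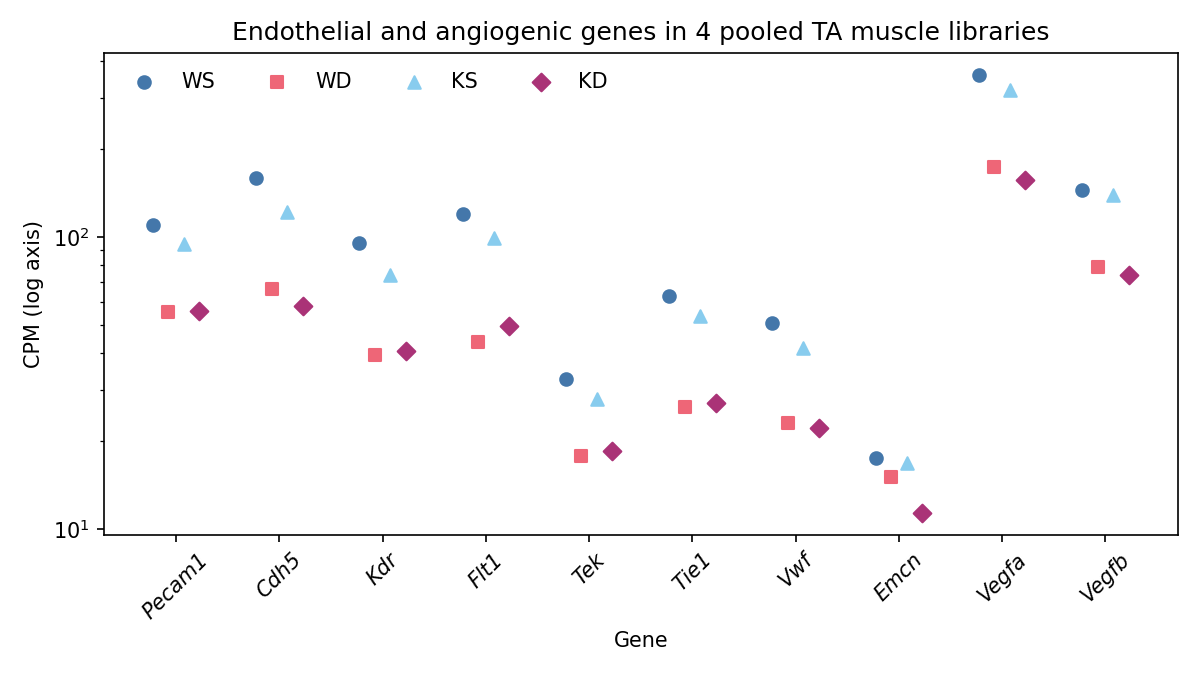
Level of each gene (CPM, log axis) in the libraries WS, WD, KS and KD, 1 point per pooled library. Both sham points lie above both denervated points for all 10 genes, from Emcn at 17.6 CPM in WS and 15.04 in WD to Vegfa at 359 in WS and 174 in WD, except that scaling by total counts alone puts Emcn higher in WD than in WS.

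Among the ligands, Vegfa, the main signal for growth of vessels, stood at 359 CPM in WS against 174 in WD, and 319 in KS against 156 in KD (8347, 5693, 9476 and 4834 counts). The 2 sham libraries lay close together well above the denervated ones. The log2 ratio was −1.04 (95% interval −1.09 to −0.99) for WD vs WS and −1.03 (95% interval −1.08 to −0.98) for KD vs KS, where the intervals cover counting error only. In the additive model Vegfa fell by 1.04 on the log2 scale (edgeR adjusted p = 3.91e-13), lower in both denervated libraries. Vegfb, a ligand of Flt1 that is linked to fatty acid handling, was measured at 145 CPM in WS against 78.7 in WD, and 139.6 in KS against 74.2 in KD. Its sham and denervated libraries were again apart, with a narrower gap. Vegfb had log2 ratios of −0.88 (95% interval −0.95 to −0.81) in WT and −0.91 (95% interval −0.99 to −0.84) in Fgf21KO, and a log2 fold change of −0.90 (edgeR adjusted p = 1.79e-11) that missed the fold condition.

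Both VEGF receptors had a lower ratio in WT than in Fgf21KO mice, although this contrast had no test. Kdr, which carries most of the growth signal of VEGF-A, was at 95.1 CPM in WS against 39.4 in WD, and 74.2 in KS against 40.6 in KD (2210, 1288, 2204 and 1257 counts). WS was highest, KS lower, and the denervated libraries lay together at the bottom. Kdr had a log2 ratio of −1.27 (95% interval −1.37 to −1.17) in WT and −0.87 (95% interval −0.97 to −0.77) in Fgf21KO, and fell by 1.07 in the additive model (edgeR adjusted p = 1.93e-11). Flt1, a high-affinity receptor that also binds Vegfb and whose soluble form traps VEGF-A, was at 119.6 CPM in WS against 43.7 in WD, and 98.97 in KS against 49.6 in KD (2778, 1426, 2940 and 1536 counts). Its lowest library was WD, and KD stood above it. With −1.45 (95% interval −1.55 to −1.36) Flt1 had the lowest WD vs WS ratio of the 10 genes, whereas KD vs KS was −0.99 (95% interval −1.09 to −0.91). The additive log2 fold change of Flt1 was −1.22 (edgeR adjusted p = 1.24e-12). Counts were made per gene, so soluble and membrane forms of Flt1 were not separated.

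The angiopoietin receptors were both lower. Tie1 was at 62.6 CPM in WS against 26.3 in WD, and 53.6 in KS against 26.9 in KD. The sham pair and the denervated pair did not overlap. Its log2 ratios were −1.25 (95% interval −1.38 to −1.13) in WT and −0.99 (95% interval −1.12 to −0.87) in Fgf21KO (additive −1.12, edgeR adjusted p = 9.59e-12). Tek, the receptor that angiopoietins bind, was at 32.7 CPM in WS against 17.7 in WD, and 27.9 in KS against 18.5 in KD (759, 579, 830 and 571 counts). It moved less than Tie1, again without overlap of sham and denervated libraries. Tek ratios were −0.88 (95% interval −1.04 to −0.72) and −0.60 (95% interval −0.75 to −0.44), and its additive log2 fold change of −0.74 passed on p (edgeR adjusted p = 7.22e-07) but not on fold.

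Of the genes of endothelial junctions and surface, Cdh5, which encodes VE-cadherin of the adherens junction, was at 159 CPM in WS against 66.4 in WD, and 122 in KS against 58.3 in KD (3696, 2169, 3613 and 1803 counts). All 4 libraries were spread out, in the order WS, KS, WD and KD. Cdh5 had log2 ratios of −1.26 (95% interval −1.34 to −1.18) in WT and −1.06 (95% interval −1.14 to −0.98) in Fgf21KO, and with Vegfa was 1 of the 2 genes at least 2-fold lower in both. The additive fall of 1.16 had an edgeR adjusted p of 1.63e-13. Pecam1, the platelet endothelial adhesion molecule CD31 used to stain capillaries, was at 110.3 CPM in WS against 55.4 in WD, and 94.9 in KS against 55.7 in KD (2562, 1808, 2819 and 1724 counts). WD and KD were nearly equal, and both lay below the sham libraries. Pecam1 gave −0.99 (95% interval −1.08 to −0.91) in WT and −0.77 (95% interval −0.86 to −0.68) in Fgf21KO, and −0.88 in the additive model (edgeR adjusted p = 1.11e-10).

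Vwf, the adhesive clotting protein that endothelial cells store for secretion, was at 50.9 CPM in WS against 23.1 in WD, and 41.7 in KS against 22.1 in KD. Sham and denervated libraries were apart in both genotypes. The log2 ratio of Vwf was −1.14 (95% interval −1.27 to −1.004) in WT and −0.91 (95% interval −1.05 to −0.78) in Fgf21KO (additive −1.03, edgeR adjusted p = 1.62e-10). Emcn encodes endomucin, a sialomucin of capillary and venous endothelium, and differed from the other endothelial genes in WD vs WS. It was at 17.6 CPM in WS against 15.04 in WD, and 16.8 in KS against 11.3 in KD (408, 491, 499 and 351 counts). WS, KS and WD lay near each other and KD alone was clearly lower. The WD vs WS log2 ratio of Emcn was −0.22 (95% interval −0.42 to −0.031), which turned to 0.060 when libraries were scaled by total counts alone, and KD vs KS was −0.56 (95% interval −0.77 to −0.37). Its additive log2 fold change of −0.39 had an edgeR adjusted p of 0.0084, and DESeq2's Wald test gave an adjusted p of 0.109. Across all alternatives the adjusted p of Emcn ran from 0.00823 (DESeq2 size factors) to 0.636 (total counts only).

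**Figure D2:**
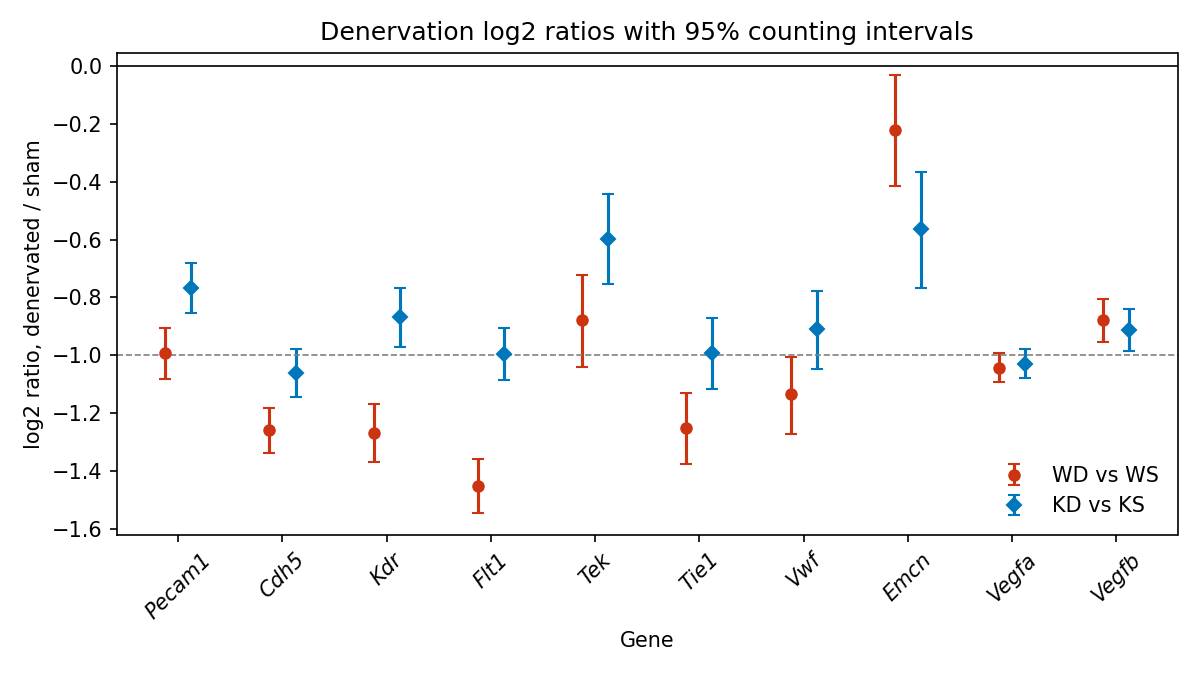
Log2 ratio of denervated to sham muscle for each gene in WT (WD vs WS, circles) and Fgf21KO (KD vs KS, diamonds), with bars for 95% counting intervals and a dashed line at −1. WT ratios run from −1.45 (Flt1) to −0.22 (Emcn, above 0 with total counts only), and Fgf21KO ratios from −1.06 (Cdh5) to −0.56 (Emcn).

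The count of genes at least 2-fold lower in KD vs KS depended on small shifts, because Flt1 and Tie1 lay at −0.99 and −0.99. With DESeq2 size factors it was 4 of 10 and with the deposited log2 values 3 of 10. Total counts only, a larger shift that moved the all-gene median to 0.36, gave 0 of 10. For WD vs WS the count was 6 of 10 under each alternative except total counts only, where it was 1 of 10.

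Genotype was compared next, to ask whether loss of Fgf21 moved these genes with or without a nerve. No gene of the 10 was 2-fold apart between KS and WS, as 2.04% of all genes were, nor between KD and WD, as 1.55% were. In sham muscle KS was below WS for 10 of 10 genes, beside 50.3% of all genes tested, with log2 ratios from −0.39 (Cdh5) to −0.055 (Vegfb), and the direction was kept under each alternative run. The counting interval lay off 0 for 8 of the 10, as it did with a lower level for 17.1% of all genes tested, and those of Emcn and Vegfb included 0. Such intervals narrow with depth, so shares over all genes, many with fewer counts, are not a like measure. The median KS vs WS ratio of the 8 endothelial genes was −0.25, beside −0.0017 over all genes tested. In denervated muscle KD was below WD for 5 of 10 genes, beside 51.3% of all genes tested, and above it for 5 of 10. The counting interval lay off 0 for 4 of the 5 below (15.4% of all genes tested were lower in this way) and for 1 of the 5 above, Flt1 (12.9% higher). Here Flt1 was highest at 0.18 (95% interval 0.080 to 0.29) and Emcn lowest at −0.40 (95% interval −0.61 to −0.21). The comparisons KS vs WS and WD vs WS share the WS library. In edgeR's quasi-likelihood test for genotype, 0 of 10 genes passed and 0.176% of all genes did. 2 of the 10, Cdh5 and Vegfa, had an unadjusted p below 0.05, beside 7.93% of all genes tested, and 4 of 10 had one with total counts only, beside 8.09% of all genes. By the labels both legs of a mouse were used, so the sham and denervated pools of a genotype may share animals, and the genotype test counts them as 2 replicates. For Cdh5 the log2 fold change was −0.29 (edgeR adjusted p = 0.0735, lower in both Fgf21KO libraries). DESeq2's Wald test also gave 0 of 10 at an adjusted p below 0.05, and 1 of 10 at an unadjusted one, beside 1.92% of all genes tested. Flt1 alone of the 10 had opposite signs in sham and denervated muscle with both intervals off 0, as 4.47% of all genes tested had.

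The difference between genotypes in the response to denervation was taken as the KD vs KS ratio minus the WD vs WS ratio, which is the same number as KD vs WD minus KS vs WS. It was above 0, with a counting interval off 0, for 7 of 10 genes, beside 13.6% of all genes tested. These were the endothelial genes other than Emcn, whose ratios were thus nearer 0 in Fgf21KO. The 7 had more counts in each library than that library's median gene (from 296 in WS to 431 in WD). Counting intervals narrow with depth, so the share over all genes is not a like measure. Genes of 1 cell type are also not independent observations. Of the 25 further pan-endothelial genes of the lists, 8 had such an interval above 0 and 1, Calcrl, below 0 at −0.40 (95% interval −0.70 to −0.087), while 16 of the 25 values were above 0 and 9 below. Their median was 0.085, beside 0.23 for the 10 genes and −0.0048 over all genes tested. The difference was 0.46 (95% interval 0.33 to 0.59) for Flt1 and 0.40 (95% interval 0.26 to 0.54) for Kdr. Cdh5 had 0.20 (95% interval 0.086 to 0.31), the smallest of the 7. Emcn went the other way, at −0.34 (95% interval −0.61 to −0.067), as 15.6% of all genes tested did with an interval off 0, whereas the intervals of the ligands included 0. Vegfa had 0.013 (95% interval −0.057 to 0.083) and Vegfb −0.032 (95% interval −0.14 to 0.072). With total counts only, which moved the median over all genes to 0.069, the interval lay above 0 for 8 of 10 genes and below 0 for 0. The intervals leave out the spread between mice. The difference was not tested, since 1 library per group leaves no error term for an interaction.

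Levels were compared between genes per kilobase of merged exons. In WS the order was Vegfb (113 CPM per kb), Vegfa (102), Cdh5 (39.8), Pecam1 (26.7), Kdr (16.1), Tie1 (13.8), Flt1 (10.9), Tek (6.95), Emcn (6.79) and Vwf (5.20). Tek and Emcn were the only neighbours in WS whose 95% Poisson intervals overlapped. Such intervals cover counting error only and leave out error in the lengths, which merge the exons of a gene's transcripts. In WD, Vegfb (61.5 CPM per kb) and Vegfa (49.5) again led and Vwf (2.36) was again last, but Emcn (5.81) stood between Kdr (6.66) and Tie1 (5.77). The intervals of Emcn overlapped those of both Kdr and Tie1 in WD, and those of Tek and Flt1 overlapped each other. KS kept the WS order except that Emcn (6.49 CPM per kb) and Tek (5.94) changed places. The intervals of those 2 overlapped in KS, as did those of Kdr (12.5) and Tie1 (11.8). KD had the order of KS, and there Pecam1 (13.5 CPM per kb) overlapped Cdh5 (14.6), and Emcn overlapped Flt1 and Tek.

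Other genes of endothelial cells moved the same way. Of 25 further pan-endothelial genes, 14 fell with the fold condition, 0 rose and 11 did neither, and 25 of 25 were lower at an adjusted p below 0.05 alone (edgeR). Their median log2 fold change was −1.005, beside 0.0093 over all genes tested. Nos3, the endothelial nitric oxide synthase, had 520 counts in WS against 292 in WD, and 461 in KS against 200 in KD, with both sham libraries above both denervated ones. Nos3 fell by 1.29 (edgeR adjusted p = 1.06e-09), Rasip1, needed for vessel lumens, by 1.24, and Shank3 by 1.22. Adgrf5, an adhesion receptor and the most abundant gene of the list, fell by 1.17 (edgeR adjusted p = 1.35e-13). With total counts only, 0 of 25 passed the fold condition.

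Among 9 receptors and coreceptors of VEGF and angiopoietins, 4 of which are described above, 5 fell with the fold condition and 0 rose, and 8 of 9 were lower on p alone (median −1.01). The fold condition was met by 1 of 9, Flt4, with total counts only. Flt4, the receptor of VEGF-C, had the lowest value at −1.40 (edgeR adjusted p = 4.41e-08), and Ptprb, the phosphatase that restrains Tek, was the most abundant and fell by 1.01, but missed the fold condition with total counts only, at −0.69. Of 6 ligands, Vegfa and Vegfb included, Vegfa alone passed with the fold condition and 4 were lower on p alone (median −0.74), and with total counts only 0 of 6 passed, with 2 lower and 1 higher on p alone. Pgf and Angpt4 were not analysed here. Of 16 endothelial transcription factors, 2 fell with the fold condition, Lyl1 (−1.33) and Elk3, which lay at the edge of the fold condition, and 0 rose. With the stricter filter (mean count of 50), which left 15 genes and removed Lyl1, 0 passed. Without a filter 1 of them passed, and with total counts only 1 was lower and 2 higher. On p alone 12 were lower and 2 higher, the latter being Ets2, the most abundant of them, at 0.69 (edgeR adjusted p = 4.23e-09) and Lmo2, named after its value was seen, at 0.72.

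Some genes stand in more than 1 list. By vessel type, 4 of 8 capillary genes, Kdr included, fell with the fold condition and 8 of 8 were lower on p alone, with a median of −1.03. Aqp1, a water channel, had 14152 counts in WS against 5882 in WD, and 16510 in KS against 5777 in KD. Its denervated libraries were far below the sham ones, and it fell by 1.67 (edgeR adjusted p = 2.09e-17). Lpl, the lipase that frees fatty acids from plasma triglyceride and that myofibres also make, was the most abundant and fell by 1.40, and Gpihbp1, which holds that lipase on the capillary wall, by 1.29. Of 10 arterial genes 4 fell (median −0.81), among them the Notch ligand Dll4 at −1.45, the gap junction gene Gja4 at −1.25 and Notch4 at −1.21. Of 7 venous genes, Vwf included, 2 fell (median −0.77), with Lrg1 at −1.68 (edgeR adjusted p = 9.63e-11). The venous median was −1.14 for WD vs WS and −0.41 for KD vs KS, or −0.85 and −0.056 with total counts only. Of 6 lymphatic genes, Flt4 fell and Prox1 rose by 1.46 (edgeR adjusted p = 1.86e-06), from 53 counts in WS against 231 in WD, and 69 in KS against 176 in KD. Prox1, a lymphatic regulator that slow myofibres and satellite cells also express, was thus higher in both denervated libraries, and the list's median was −0.34. For WD vs WS alone that median was −0.021, or 0.25 with total counts only and −0.60 over the 4 genes left by the stricter filter. On the scale of total counts 2 of 8 capillary, 1 of 10 arterial and 1 of 7 venous genes passed as lower, and Gpihbp1, Gja4 and Notch4 missed the fold condition.

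**Figure D3:**
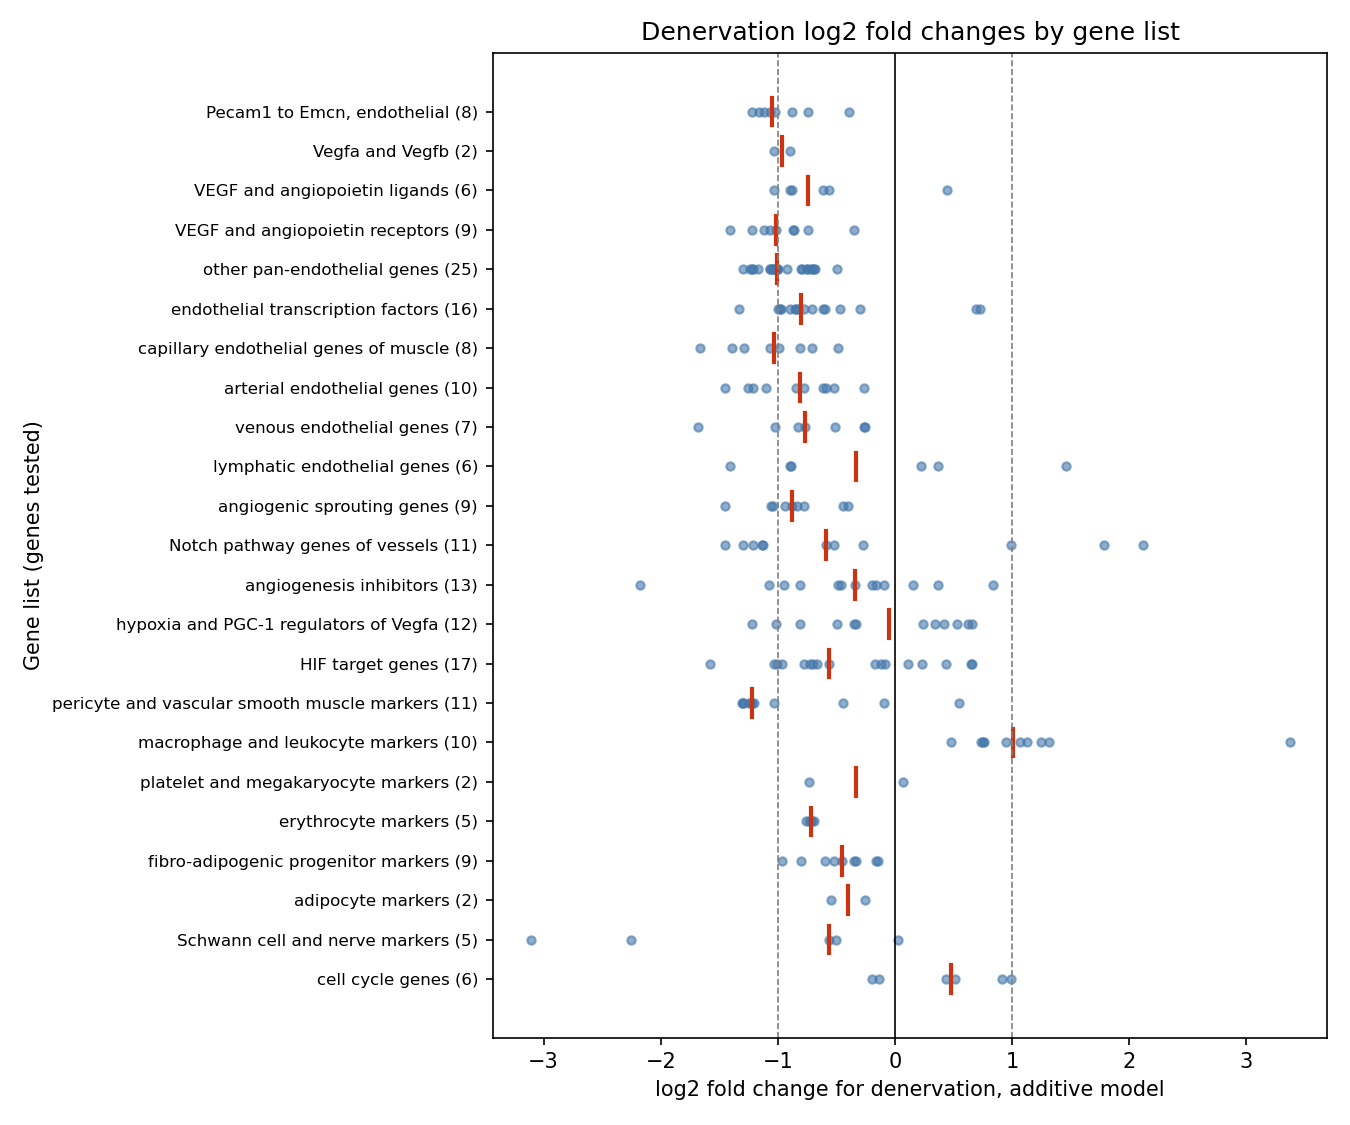
Log2 fold change for denervation (additive model, 4 libraries) of each gene tested in each list of 2 or more, with a red bar at the list's median and dashed lines at −1 and 1. The 8 endothelial genes have a median of −1.05 and the further pan-endothelial genes −1.005, whereas macrophage and leukocyte markers have 1.01, and scaling by total counts only moves all points up.

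Genes of the processes around these receptors were mixed. Of 9 genes of sprouting tip cells, 3 fell with the fold condition and 0 rose (median −0.88), namely Dll4, Pdgfb at −1.06 and Unc5b at −1.04, and the most abundant, Mcam, was at −0.45 (−0.13 with total counts only). In the Notch pathway, which limits tip cell number, 5 of 11 fell and 2 rose (median −0.59). Dll1 had 135 counts in WS against 721 in WD, and 148 in KS against 762 in KD, and it rose by 2.12 (edgeR adjusted p = 9.35e-14), and Notch2 rose by 1.78. Notch3, typical of mural cells, fell by 1.30, and the most abundant gene, the transcription factor Rbpj, was at −0.27 but at 0.051 with total counts only. Of 13 angiogenesis inhibitors 2 fell and 0 rose (median −0.34), and the KD vs KS median of −0.26 turned to 0.090 with total counts only. The 2 were the basement membrane collagen Col4a3 at −2.18, with 78 counts in WS against 38 in WD, and 100 in KS against 12 in KD, and the feedback inhibitor Spry4 at −1.08. Sparc, the most abundant inhibitor, was at −0.81 and passed on p alone (edgeR adjusted p = 1.37e-10). With total counts only, 1 of 9 tip cell genes (Dll4) and 1 of 11 Notch pathway genes passed as lower and 3 of the latter as higher, and of the inhibitors 1 was lower and 1 higher.

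Regulators and targets of the hypoxia pathway, which controls Vegfa, were also listed. Of 12 hypoxia and PGC-1 regulators, 2 fell with the fold condition and 0 rose (median −0.050), and the WD vs WS median of −0.039 turned to 0.24 with total counts only, where 0 of 12 passed. Egln1, the oxygen sensor that marks HIF proteins for decay, was the most abundant, at 441 CPM in WS against 192 in WD, and 413 in KS against 175 in KD. It fell by 1.22 (edgeR adjusted p = 1.13e-14), and Esrra, a partner of PGC-1 proteins, fell by 1.01. On p alone 6 were lower and 5 higher, against 3 lower and 6 higher with total counts only, where the median log2 fold change turned to 0.27. Of the regulators, picked after their values were seen, Epas1, the HIF protein prominent in endothelium, was at −0.81 and Hif1a at 0.42. Among 17 HIF targets, Vegfa included, 3 fell with the fold condition and 0 rose (median −0.56). The median was −0.24 with total counts only and −0.17 over the 15 left by the stricter filter, and calls on p alone went from 9 lower and 3 higher to 6 and 6 with total counts only. Ldha, lactate dehydrogenase of glycolysis, was at −1.58 (edgeR adjusted p = 1.40e-15) and the vessel peptide Adm at −1.01 (edgeR adjusted p = 0.0179), from 46 counts in WS against 49 in WD, and 64 in KS against 20 in KD. Adm did not pass with DESeq2's Wald test or with total counts only, and its adjusted p ran from 0.0179 to 0.166 across the alternatives. Of the 17 targets 1 passed with total counts only, Ldha, and 2 with DESeq2's Wald test. Aldoa, a glycolytic gene of myofibres, made up 80.1% of the list's summed CPM and was at −0.78.

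Markers of other cells in the muscle were read on the same libraries. Of 11 pericyte and vascular smooth muscle markers, 8 fell with the fold condition and 0 rose (median −1.22), and on p alone 9 were lower and 1, Des, higher. Acta2, smooth muscle actin, had 902 counts in WS against 479 in WD, and 1024 in KS against 460 in KD. It was at −1.31, and Kcnj8, a potassium channel of pericytes, at −1.30. The list's summed level was 4989 CPM in WS against 6573 in WD, and 4970.1 in KS against 5993 in KD, and it was set by Des, which myofibres also express, with 83.4% of the sum and 0.54 for denervation (edgeR adjusted p = 3.25e-06). Cspg4 and Higd1b were not analysed here. With total counts only, 0 of 11 passed the fold condition.

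Of 10 macrophage and leukocyte markers, 5 rose with the fold condition and 8 on p alone, and 0 fell (median 1.01). The count with the fold condition was 2 of 10 with DESeq2's Wald test (3 on p alone), 3 of 8 with the stricter filter and 9 of 10 with total counts only. Their summed level was 33.7 CPM in WS against 73.7 in WD, and 34.8 in KS against 72.9 in KD, with Lyz2 the most abundant at 0.95 and Cd68 the most changed at 3.37, from 23 counts in WS against 350 in WD, and 32 in KS against 333 in KD. Adgre1 was at 1.31 and the pan-leukocyte gene Ptprc at 1.25 (edgeR adjusted p = 0.00238 and 0.00256), but neither passed with DESeq2's Wald test. Across the alternatives the adjusted p of Adgre1 ran from 0.0016 to 0.081 and that of Ptprc from 0.00188 to 0.0688, the highest being those of DESeq2's Wald test. Schwann cell and nerve markers, 5 of 8 tested, had summed levels of 64.7 CPM in WS against 24.99 in WD, and 63.7 in KS against 25.1 in KD. Of the 5 tested, 2 fell with the fold condition, Prx at −3.11 and Pmp22, the most abundant with 44.7% of the sum, at −2.25. On p alone 3 were lower, and the list's median was −0.56, or −0.24 with total counts only. The 3 markers of the list that were not tested were not analysed here. Every gene of the count table had at least 1 count in each library, so no marker analysed could be at 0.

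Fewer changes passed in the remaining lists. Fibro-adipogenic progenitor markers had 0 of 9 past the fold condition and 5 lower on p alone (median −0.45), with summed levels of 839 CPM in WS against 519 in WD, and 805 in KS against 560.0 in KD. Col3a1, the most abundant, was at −0.52 (edgeR adjusted p = 1.03e-06). On the scale of total counts the list had 3 lower on p alone and a median of −0.13, and Col3a1 was at −0.20 and did not pass on p. All 5 erythrocyte markers tested were lower on p alone and 0 passed on fold (median −0.72), summing to 289 CPM in WS against 208 in WD, and 333 in KS against 170.2 in KD. With total counts only 4 of the 5 were lower on p alone (median −0.40), as with DESeq2's Wald test (median −0.73). The most abundant, Hbb-bs, was at −0.69, and the globin genes are near-identical copies whose reads can be split between them. Platelet markers, of which Itga2b and Pf4 were tested, had 0 of 2 passing and summed to 1.59 CPM in WS against 1.72 in WD, and 1.65 in KS against 1.03 in KD. Pf4 was at 0.071. Adipocyte markers had 0 of 2 passing and summed to 21.00 CPM in WS against 18.4 in WD, and 15.1 in KS against 11.6 in KD, with Cfd, the most abundant, at −0.26, or 0.062 with total counts only. Of 8 myofibre markers Myh1, a fast myosin, was tested. It stood at 24299.9 CPM in WS against 15649 in WD, and 21599.8 in KS against 17530 in KD, with a log2 fold change of −0.47 (edgeR adjusted p = 2.78e-04), or −0.15 with total counts only, where it did not pass on p, and a KD vs KS ratio of −0.30 that turned to 0.057 with total counts only. The other 7 were not analysed here. Cell cycle genes had 0 of 6 passing on fold and 2 higher on p alone, the most abundant, Pcna, being at 0.51 (edgeR adjusted p = 1.32e-04). On fold 2 passed with total counts only, and on p alone 1 did with DESeq2's Wald test. Higher calls on p alone made up 26.6% of all genes tested. The part of these other cells in the values of the 10 genes was not tested. For the mitochondrial share, libraries were also scaled without the 13 mitochondrial genes. The medians of the 8 endothelial genes were then −1.19 (WD vs WS) and −0.89 (KD vs KS). TMM factors were again used, which 13 of 13084 genes can move little, so this setting could hardly show an effect of that share. The effect of the share was not tested.

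The genes nearest to Kdr and Vegfa across the 4 libraries were sought by Euclidean distance of centred log2 CPM among 10179 genes whose mean count was 100 or more. Nearest to Kdr were Oip5os1, a long noncoding RNA, at a distance of 0.0493, the calcium pump Atp2a3 at 0.056 and Sipa1 at 0.0563. Oip5os1 had 4046 counts in WS against 2351 in WD, and 3898 in KS against 2329 in KD, so WS stood highest and the denervated libraries together at the bottom, as for Kdr. Nearest to Vegfa were the matrix protein Tinagl1 at 0.0503, Itfg2 at 0.052 and Kirrel at 0.06. Tinagl1 had 599, 401, 688 and 334 counts in WS, WD, KS and KD, and log2 ratios of −1.07 and −1.10 for WD vs WS and KD vs KS.

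Promoter sequence was examined because the receptor genes fell together and Emcn fell least. RefSeq windows of GRCm38.p6 were found for 7 of the 10 genes (8 windows), the others being Pecam1, Cdh5 and Vwf. The 250 bases directly upstream of each RefSeq start were searched on both strands for GGAA, the core bound by ETS factors such as Ets1 and Erg, and for the GC box GGGCGG, and the searched letters were chosen after seeing the data. GGAA was held by 93.4% of all 32851 windows, with a median of 3 matches, and GGGCGG by 32.7%. Tie1 held 7 matches to GGAA, Kdr, Flt1 and Emcn 4 each, Vegfa 6 in the window of its outermost start and 2 in that of an inner start, Tek 2 and Vegfb 1. Emcn, with its small change, thus held as many as Kdr and Flt1. A match is a description, neither a site nor a cause. Shown 5′ to 3′ on the strand of the gene, with GGAA or its reverse complement TTCC in capitals, are Kdr (chr5:75978456-75978705, minus strand), Flt1 (chr5:147726012-147726261, minus strand), Tie1 (chr4:118489850-118490099, minus strand) and Emcn (chr3:137340828-137341077, plus strand).
Kdr: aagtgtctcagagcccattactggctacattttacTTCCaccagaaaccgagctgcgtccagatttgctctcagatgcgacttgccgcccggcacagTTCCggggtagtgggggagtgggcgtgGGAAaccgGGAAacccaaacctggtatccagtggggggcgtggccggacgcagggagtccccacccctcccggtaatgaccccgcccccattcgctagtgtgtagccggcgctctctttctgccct
Flt1: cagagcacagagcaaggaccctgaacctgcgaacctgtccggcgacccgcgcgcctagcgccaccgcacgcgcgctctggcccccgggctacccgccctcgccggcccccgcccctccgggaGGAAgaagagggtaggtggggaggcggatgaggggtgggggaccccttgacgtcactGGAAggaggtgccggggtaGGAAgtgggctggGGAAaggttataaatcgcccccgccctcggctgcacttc
Tie1: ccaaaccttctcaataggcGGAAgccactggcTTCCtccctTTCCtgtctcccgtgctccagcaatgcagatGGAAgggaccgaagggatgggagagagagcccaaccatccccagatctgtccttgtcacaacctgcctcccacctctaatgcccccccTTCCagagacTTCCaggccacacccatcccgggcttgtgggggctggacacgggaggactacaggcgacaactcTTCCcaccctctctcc
Emcn: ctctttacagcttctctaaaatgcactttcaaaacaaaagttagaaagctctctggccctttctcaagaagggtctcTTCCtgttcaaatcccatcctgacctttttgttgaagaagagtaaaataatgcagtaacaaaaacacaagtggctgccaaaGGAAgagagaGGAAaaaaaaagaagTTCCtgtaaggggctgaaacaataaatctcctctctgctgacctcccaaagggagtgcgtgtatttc

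For the ligand, the Vegfa window of the outermost start (chr17:46032378-46032627, minus strand) is shown with GGGCGG or CCGCCC in capitals, of which it held 2 matches. Kdr held 2, Flt1 3 and Vegfb 4 matches, and Tek, Tie1 and Emcn 0, which says only that these letters are not in those windows.
Vegfa: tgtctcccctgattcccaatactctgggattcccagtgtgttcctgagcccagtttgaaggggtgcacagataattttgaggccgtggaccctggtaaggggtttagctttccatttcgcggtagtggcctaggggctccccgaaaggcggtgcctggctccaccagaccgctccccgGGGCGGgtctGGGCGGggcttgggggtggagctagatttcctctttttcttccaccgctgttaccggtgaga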

How the data were processed

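Pooled TA muscle mRNA of 4 groups (WS, WD, KS and KD) was sequenced as 1 library each from a stranded kit. The authors deposited a table of raw counts per gene and a second table on a log2 scale. The count table held only genes with at least 1 count in each of the 4 libraries. The deposited log2 values equal log2 of a count times 1 factor per library, plus 1, without correction for length. The submitters' processing notes name GRCm39 and FastQC, and the aligner and counter are not given in the sources used here.

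The 13084 of 13825 genes whose mean count reached 10 were tested with edgeR 4.0.16 in R 4.3.3. Counts were scaled with TMM factors (WS 0.9202, WD 1.12, KS 0.87, KD 1.115), and log2 ratios used a prior count of 2. Intervals (95%) of ratios are exact conditional binomial intervals of the counts (scipy 1.17.1), and cover counting error only. A gene with 3 counts had a CPM between 0.0919 (WD) and 0.129 (WS). The additive model was fitted by glmQLFit, and its common biological coefficient of variation was 0.0681. That value comes from differences between genotypes in the response of the pools, not from the spread between mice. DESeq2 1.42.0 gave the alternative test. Lengths are merged exons of GENCODE M21 on GRCm38, another build than that of the counts. The model was run on 5 simulated sets with 200 of 13084 genes changed 4-fold, and 98.7% of these were recovered. Counts were drawn with the dispersion of this fit and without a difference between genotypes in the response. The simulation thus says nothing about the spread between mice or the choice of scale.

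The 10 genes and the gene lists were chosen with earlier results of these data known. Named genes are the 10, the up to 3 highest and 3 lowest passing genes of each list with its most abundant gene, and the 3 nearest to Kdr and to Vegfa. Other names were chosen after their values were seen. Alternatives were DESeq2 size factors, total counts, no mitochondrial genes, other filters and prior counts, the deposited log2 values, and no fold threshold.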

Additional observations from a re-analysis of the deposited data

Results flagged for a closer look

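For 8 of 57 named genes examined, Fgf21KO and WT muscle differed in one direction in sham libraries and in the opposite direction in denervated ones, each log2 ratio having a counting interval off 0, as 4.47% of all genes tested did. Counting intervals narrow with depth, so that an abundant gene such as Aldoa lies off 0 at a ratio of −0.020. Flt1 is the only gene of the 10 among them, with −0.27 (95% interval −0.35 to −0.20) for KS vs WS and 0.18 (0.080 to 0.29) for KD vs WD, a difference of 0.46. Under each scaling run, Flt1 was higher in WT among sham libraries and higher in Fgf21KO among denervated ones. Myh1 (−0.17 in sham and 0.16 in denervated muscle, a difference of 0.33) and Col3a1 (−0.21 and 0.079, difference 0.29) had the same order of signs. The reverse order, higher in KS and lower in KD, was seen for Lpl (0.060 and −0.35, difference −0.40), Hbb-bs (0.26 and −0.20, difference −0.46), Ldha (0.043 and −0.24, difference −0.29), Des (0.026 and −0.15, difference −0.17) and Aldoa (0.088 and −0.020, difference −0.11). With total counts only, KS vs WS was −0.021 for Lpl, −0.037 for Ldha and −0.055 for Des, so that these 3 no longer had opposite signs, and Aldoa was at 0.0067, whereas the other alternatives left the signs of all 8 as they were. These differences were not tested, and with 1 library per group the intervals leave out the spread between mice. A further 24 comparisons had opposite signs with at least 1 interval that included 0.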

How the results depend on the processing

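No paired analysis was possible because pooling left 1 library per group, in which legs cannot be matched by mouse. For the same reason no replicate was left out. The denervation term of the additive model, fitted beside one for genotype, compares sham and denervated pools within genotype, at the level of pools.

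Among genes at least 2-fold apart, the deposited log2 values gave 1188 for WD vs WS, 1117 for KD vs KS, 29 for KS against WS and 25 for KD against WD, against 1936, 1780, 267 and 203, since their pseudocount shrinks low genes. A mean count of at least 50 gave 68 for KS against WS and 46 for KD against WD, with fewer genes tested. With total counts only, the median log2 ratio of the 8 endothelial genes was −0.91 for WD vs WS and −0.53 for KD vs KS, and 0 of the 8 and 0 of the 10 passed the test for denervation, which follows from the shift of all genes. Without a fold threshold 7003 genes, 8 of the 8 and 10 of the 10 passed for denervation, and 88 genes for genotype. For genotype a mean count of at least 50 gave 15 genes and DESeq2's Wald test 13, against 23, and the cause was not tested for the latter. Rbpj (0.051) and Cfd (0.062) turned positive with total counts only.

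All other counts and medians across comparisons, 76 in number, stayed within 1.5 times the reported count or within counting error. For single genes and lists, 120 counts of lists and 295 log2 ratios also did so, and 34 and 25 moved further. Of the tested log2 fold changes, 365 stayed on the same side of the call, 29 lost it, 2 gained it and 2 turned. Of the 365, 15 still changed by more than 1.5 times, all with total counts only, such as Emcn from −0.39 to −0.073 and Aldoa from −0.78 to −0.46.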
